A study of Mus musculus with 6 samples.

Results

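The hair keratins and keratin-associated proteins were followed in RNA-Seq counts from the top lip of KO and WT mice. Members were chosen by name alone, as gene symbols that begin with Krtap or that are Krt25 to Krt28, Krt31 to Krt40 with or without a letter suffix, Krt71 to Krt75 or Krt81 to Krt86, and that reached 1 CPM, the read count scaled to library size, in 3 libraries or more. This rule named 78 symbols and kept 77 of the 26814 in the count table, of which 15009 were tested for a genotype difference. The 77 members were 23 keratins and 54 keratin-associated proteins from 25 Krtap families. GENCODE M21 lists 75 of them as protein-coding and 2, Krt74 and Krtap19-9a, as pseudogenes.

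The study compared 3 mice homozygous for the Gtf2ird1 knockout allele tm1Hrd (KO) with 3 wild type mice (WT), with 1 library from each mouse. All 6 were adult females on a C57BL/6J background, and the allele is carried in every cell of the KO animals. The study gives their ages only as a range of several months, not for each mouse. Lip tissue was dissected whole, so each library mixes epidermis, hair follicles, glands, muscle and other cells. In such bulk tissue, fewer cells of a type and less RNA per cell cannot be told apart. Total counts ranged from 20164081 in KO1 to 29491767 in KO2. Gtf2ird1 itself had 78.2, 70.2 and 70.7 CPM in the WT libraries and 166, 162 and 144 CPM in the KO libraries, so the targeted gene was higher in KO (log2 fold change 1.11, SE 0.13, adjusted p = 0.0018). A count per gene cannot tell mutant from intact transcripts, and every direction given here is therefore that of the libraries as labelled.

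A hair is built from concentric layers that each make their own keratins. The matrix at the base of the follicle gives rise to the cortex, which forms the bulk of the hair, to the cuticle that covers it, and to the inner root sheath that moulds it and is shed before the hair emerges, with the companion layer outside the sheath. Type I keratins (Krt25 to Krt40 here) pair with type II keratins (Krt71 to Krt86) into intermediate filaments. In the cortex and cuticle these filaments are embedded in a matrix of keratin-associated proteins, small proteins rich either in cysteine, which forms disulfide bonds (high sulfur and ultra-high sulfur classes), or in glycine and tyrosine. Hair follicles pass through cycles of growth and rest, and hair keratins are made only during growth.

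The members lie in a few dense gene clusters of GRCm38. Chromosome 11 held 36 members between 99315516 and 100105626, all type I keratins and 23 Krtap genes. Chromosome 15 held the 10 type II keratins between 101459061 and 101802346. Another 23 Krtap genes lay on chromosome 16 between 88610705 and 89571183, 5 on chromosome 7 and 3 on chromosome 10. Each of the 54 Krtap members had 1 exon. All 77 were matched in GENCODE M21, and 74 of them reached 1 CPM in all 6 libraries. Krtap20-2, Krtap31-2 and Krtap9-5 reached it in 5, so no member passed the filter through the WT libraries alone. The only named gene below the filter was Krtap13, with 5, 7 and 10 reads in the WT libraries and 0, 1 and 5 in the KO libraries. Just inside it lay Krtap20-2, Krtap29-1 and Krtap27-1, which reached 3.78, 6.29 and 7.43 CPM in 3 libraries, against 0.225 CPM in Krtap13.

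RefSeq promoters of GRCm38.p6, 250 bases before to 50 bases after the gene start, were matched for 65 members. A shared sequence feature was the TATA box, the element that positions the start of transcription a short distance downstream. The letters TATAAA, on the strand of the gene and with their first base 40 to 20 bases before the start, occurred in 39 of the 65 promoters (60%), against 600 of 27025 promoters of all genes (2.22%). The share was 73.1% of 26 cortex promoters, 60% of 10 cuticle promoters and 71.4% of 7 inner root sheath promoters. The letters CTTTGAA, bound by LEF1 and its relatives, occurred on either strand anywhere in the 300 bases of 14 members (21.5%), against 5.27% of all promoters. A match of letters is a description and not a binding site. The following 100 bases before the start, 5′ to 3′ on the strand of the gene, belong to members that the results below turn on, and capitals mark TATAAA.
Krtap6-3, chr16:89083924-89084023, plus strand: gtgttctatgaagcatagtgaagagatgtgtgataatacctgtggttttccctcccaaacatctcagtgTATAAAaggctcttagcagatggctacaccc
Krtap20-2, chr16:89205761-89205860, plus strand: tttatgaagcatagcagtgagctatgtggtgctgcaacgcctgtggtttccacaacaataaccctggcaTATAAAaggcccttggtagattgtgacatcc
Krtap8-1, chr16:89487953-89488052, minus strand: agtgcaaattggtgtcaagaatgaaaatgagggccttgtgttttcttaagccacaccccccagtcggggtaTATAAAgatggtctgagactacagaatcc
Krtap4-16, chr11:99851606-99851705, minus strand: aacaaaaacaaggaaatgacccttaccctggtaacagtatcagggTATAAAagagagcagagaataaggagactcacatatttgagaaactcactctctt
Krtap4-13, chr11:99809897-99809996, minus strand: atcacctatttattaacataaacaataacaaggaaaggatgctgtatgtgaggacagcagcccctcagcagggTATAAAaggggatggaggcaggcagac
Krt71, chr15:101743098-101743197, minus strand: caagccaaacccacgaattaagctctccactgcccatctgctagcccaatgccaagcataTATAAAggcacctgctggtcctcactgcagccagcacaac
Krt36, chr11:100105627-100105726, minus strand: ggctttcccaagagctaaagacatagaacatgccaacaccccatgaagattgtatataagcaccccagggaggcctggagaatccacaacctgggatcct
Krt84, chr15:101532821-101532920, minus strand: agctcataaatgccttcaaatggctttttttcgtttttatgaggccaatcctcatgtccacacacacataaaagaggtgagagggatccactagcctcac
In 5 of these sequences TATAAA begins 27 to 40 bases before the start, and in Krtap4-16 it begins 55 bases before it. The stretches of Krt36 and Krt84, the 2 members with the lowest adjusted p, do not hold these letters.

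Hair keratin and keratin-associated protein transcripts made up 1.71%, 1.79% and 2.18% of all counts in the WT libraries and 0.692%, 1.25% and 1.34% in the KO libraries. Their summed level was 18982 ± 3439 CPM in WT and 10934 ± 3367 CPM in KO (SD, n = 3), and the genotypes did not overlap. Log2 fold changes were negative in 75 of 77 members, against 52.0% of all genes tested, and their median was -0.96 against -0.02 over all genes. The 3 KO values were all below the 3 WT values in 59 members, as they did in 18.1% of all genes, and no member had all KO values above all WT values. With edgeR's quasi-likelihood test and Benjamini-Hochberg adjustment over all genes, 5 members were called lower in KO at an adjusted p under 0.05 and 0 were called higher, beside 2.09% of all genes lower and 4.38% higher. At an unadjusted p under 0.05, 51 members were lower, against 16% of all genes, and 0 were higher, against 13.5%. The tools differed widely in this count, since edgeR's exact test called 42 members lower (7.15% of all genes) and DESeq2 36 (7.61% of all genes), and neither called any higher (7.76% and 9.5% of all genes). It also rested on single libraries: 1 member was called without KO1 (0.19% of all genes), 0 without KO2 (0.122%) and 49 without KO3 (16.2%).

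**Figure D1:**
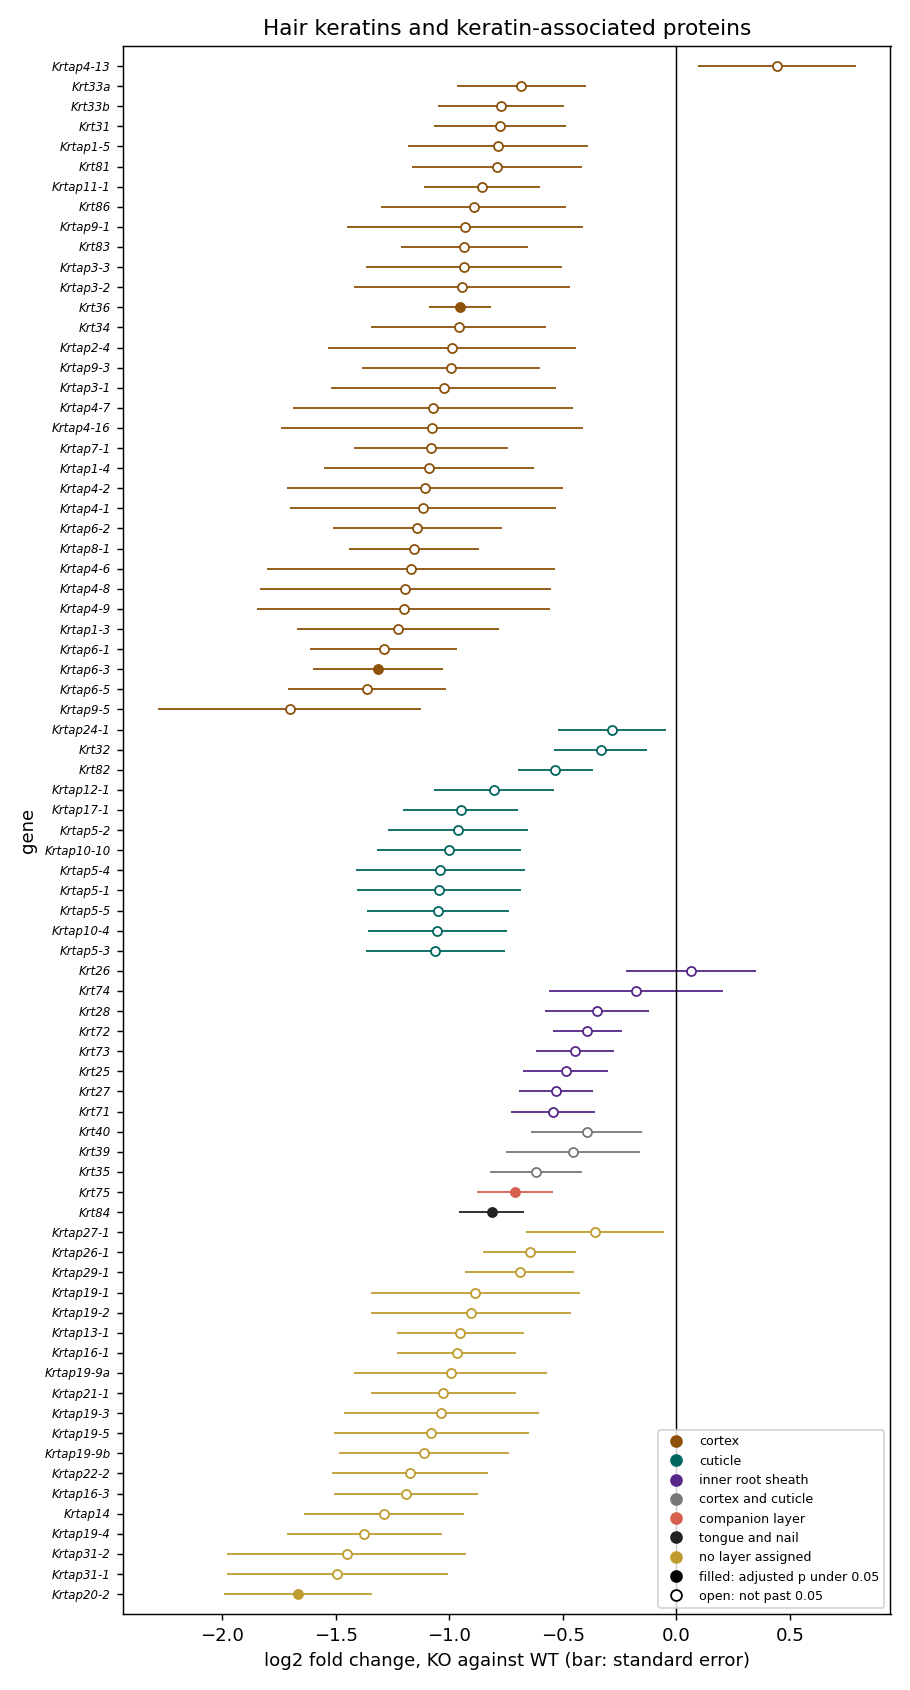
Log2 fold change of each of the 77 members, KO against WT, on the horizontal axis, with the standard error as a bar and the gene symbols grouped and coloured by hair layer. The 5 filled points passed an adjusted p of 0.05, 75 points lie left of 0, and Krtap4-13 at 0.44 and Krt26 at 0.07 lie right of it.

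The 5 members called lower were the keratins Krt36, Krt84 and Krt75 and the keratin-associated proteins Krtap6-3 and Krtap20-2. Krt36, a type I keratin of hair that is also made in nail and tongue papillae, had 60.8, 61.9 and 52.5 CPM in WT and 30.3, 32.5 and 27.6 CPM in KO (log2 fold change -0.95, SE 0.14, adjusted p = 0.00555). Its KO values lay close together and well apart from WT, at 0.519, 0.556 and 0.473 of the WT mean. Krt84, a type II keratin known from tongue papillae and nail, had 105, 106 and 96.7 CPM in WT and 49.2, 64.1 and 62.3 CPM in KO (log2 fold change -0.81, SE 0.14, adjusted p = 0.0158). In both genes WT3 was the lowest WT library, which was so in 3 of the 77 members, while WT3 was the highest of all 6 libraries in 69 of them.

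Krt75, the type II keratin of the companion layer, had 363, 356 and 451 CPM in WT and 203, 235 and 277 CPM in KO (log2 fold change -0.71, SE 0.17, adjusted p = 0.0468). It overlaps Gm44460 on the opposite strand, and whether reads were counted by strand is not given in the sources used here. Krtap6-3, a glycine- and tyrosine-rich protein whose promoter is printed above, had 18.8, 24.1 and 30.6 CPM in WT and 6.14, 11.9 and 11.4 CPM in KO (log2 fold change -1.31, SE 0.29, adjusted p = 0.0364). Krtap20-2, of the same protein class, was one of the weakest members, at 3.81, 4.97 and 6.88 CPM in WT and 1.02, 1.71 and 2.15 CPM in KO (log2 fold change -1.67, SE 0.33, adjusted p = 0.0257). Each of the 5 genes had its highest KO value below its lowest WT value. Leaving out 1 library at a time, Krt36 passed in 5 of 6 fits (adjusted p = 0.0508 without KO2) and Krtap20-2 in 2 of 6, while Krt84, Krt75 and Krtap6-3 passed in 1 of 6, the fit without KO3.

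**Figure D2:**
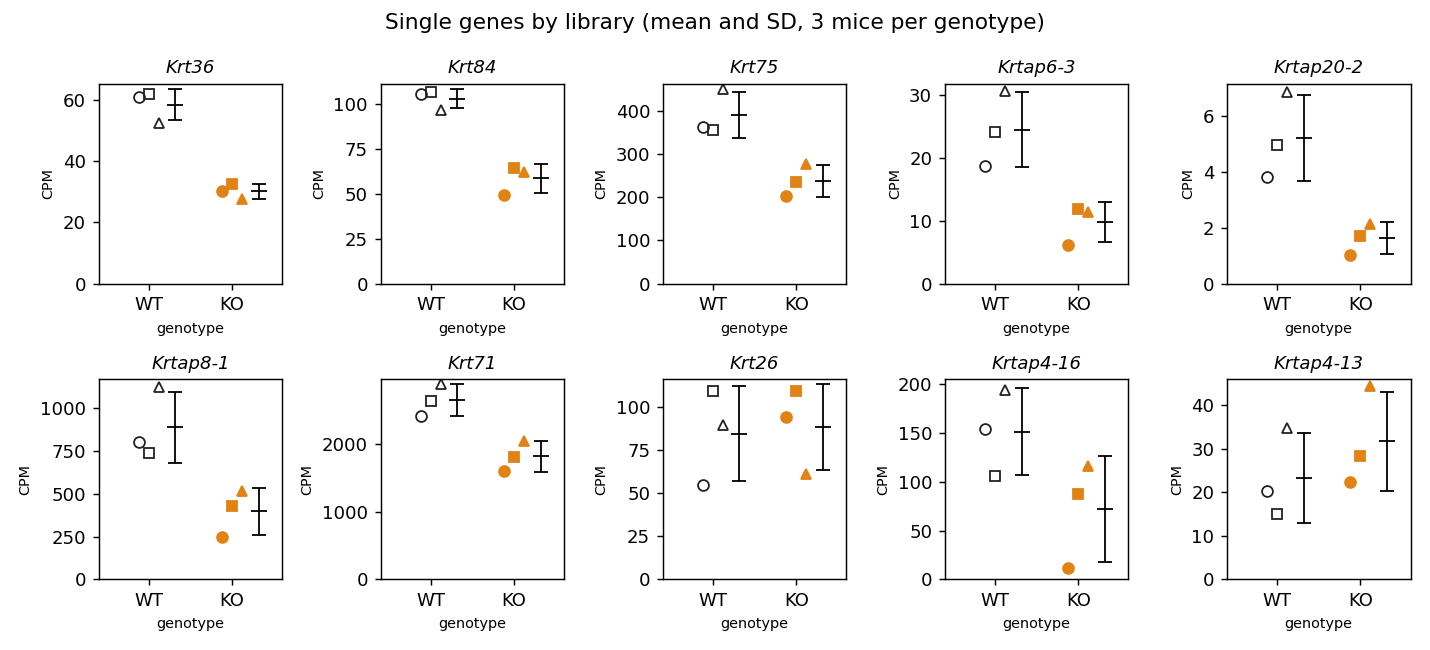
CPM of 10 members in each library, with WT open and KO filled, circles, squares and triangles for replicates 1, 2 and 3, and the mean with its SD beside them. The genotypes are apart in Krt36, Krt84, Krt75, Krtap6-3, Krtap20-2, Krtap8-1 and Krt71, and overlap in Krt26, Krtap4-16 and Krtap4-13.

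Among the 3 layers named in the comparison, cortex genes made up 33 members, cuticle genes 12 and inner root sheath genes 8. Median log2 fold changes were -1.02 in the cortex, -0.98 in the cuticle and -0.42 in the inner root sheath. Of the cortex genes 2 were called lower (Krt36 and Krtap6-3), against 2.09% of all genes, and 26 had all KO values below WT (18.1% of all genes). Krt36, also made in nail and tongue papillae, had its lowest value in KO3, whereas 7 of the 8 cortex keratins had theirs in KO1. No cuticle gene was called, although 10 of 12 had all KO values below WT and 10 had an unadjusted p under 0.05 (16% of all genes). For the cuticle, edgeR's exact test and DESeq2 each called 9 lower (7.15% and 7.61% of all genes). Of the inner root sheath genes 0 were called, 4 of 8 had all KO values below WT and 5 had an unadjusted p under 0.05. The exact test called 0 of these 8 and DESeq2 2, beside the same shares of all genes. The inner root sheath median was the least negative of the 3 in all 17 alternative fits, including each fit with a library left out. Cortex was below cuticle in 15 of 17 and above it without WT2 and without KO1 (-0.57 against -0.70 without KO1). Fits that keep all libraries are not independent checks, and both reversals came with a library left out, so the order of cortex and cuticle was unstable. No test of the difference between layers was made, since genes of a layer share their libraries and are not replicates.

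Layers also differ in what they contain: the 8 inner root sheath genes were all keratins, whereas 10 of 12 cuticle genes and 25 of 33 cortex genes were keratin-associated proteins. Over keratins alone, the medians were -0.84 for the 8 cortex keratins, -0.43 for the 2 cuticle keratins and -0.42 for the inner root sheath. The keratin-associated proteins had medians of -1.09 in the cortex and -1.02 in the cuticle. Cortex keratins were below both other keratin groups in 17 of 17 alternative fits, including each fit with a library left out. These fits share libraries and are not independent checks. In the main fit the 2 cuticle keratins stood near the inner root sheath, and the cuticle Krtap genes near the cortex. Without WT3 the cuticle keratins were at -0.25 and the inner root sheath at -0.35.

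In the cortex, the keratins had similar log2 fold changes, from -0.68 in Krt33a to -0.96 in Krt34. These are the filament proteins of the hair itself, with Krt31, Krt33a, Krt33b, Krt34 and Krt36 as type I and Krt81, Krt83 and Krt86 as type II partners. All 8 had their 3 KO values below WT (18.1% of all genes), and 6 were lower at an unadjusted p under 0.05 (16% of all genes). Krt34 is an example, with 480, 421 and 564 CPM in WT and 105, 304 and 345 CPM in KO (log2 fold change -0.96, SE 0.38, adjusted p = 0.145). Krt83 had 615, 449 and 707 CPM in WT and 193, 342 and 392 CPM in KO (log2 fold change -0.93, SE 0.28, adjusted p = 0.0813). KO1 was far below the other KO libraries in both, and the KO values were spread more widely than those of WT in Krt34. Krt31, Krt33a, Krt33b and Krt34 share between 4.05% and 17.6% of their 100-base windows with each other or with Krt35. Krt81 and Krt86 share 29.0% and 24.6% of theirs with other type II keratins. Only uniquely assigned reads were counted, so reads from shared windows could be missing from these counts.

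In the inner root sheath, Krt71 was the keratin with the highest level per length of all keratin members, at 1209 CPM per kb of exon in WT. It had 2411, 2632 and 2885 CPM in WT and 1593, 1802 and 2044 CPM in KO (log2 fold change -0.54, SE 0.18, adjusted p = 0.104). Its type I partners Krt25 and Krt27 had log2 fold changes of -0.49 (SE 0.19, adjusted p = 0.134) and -0.53 (SE 0.16, adjusted p = 0.0868). In each of these 3 genes every KO value lay below the WT values, with KO means of 0.686, 0.713 and 0.692 of WT. Krt72, known from the sheath cuticle, had a log2 fold change of -0.39 (adjusted p = 0.135) and also no overlap, and Krt73 and Krt28 had -0.44 and -0.35 with overlapping genotypes.

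Krt26 and Krt74 did not share this pattern. Krt26, a type I keratin of the sheath, had 54.6, 109 and 89.1 CPM in WT and 94.0, 109 and 60.9 CPM in KO (log2 fold change 0.07, SE 0.29, adjusted p = 0.895). Krt74, listed as a pseudogene in this annotation and the weakest type II member of the sheath, had 6.97, 13.6 and 6.75 CPM in WT and 8.95, 10.8 and 4.39 CPM in KO (log2 fold change -0.18, SE 0.38, adjusted p = 0.781). Both genes overlapped fully between genotypes, their highest WT value was in WT2 and their lowest KO value in KO3. The sign of each changed when single libraries were left out.

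Cuticle keratins were Krt32 and Krt82, the type I and type II keratins of the layer of flat cells around the hair. Krt82 had 81.7, 83.5 and 115 CPM in WT and 59.8, 66.1 and 67.8 CPM in KO (log2 fold change -0.53, SE 0.16, adjusted p = 0.0867). Krt32 had 48.4, 66.9 and 82.1 CPM in WT and 44.9, 56.8 and 55.1 CPM in KO, and its genotypes overlapped (log2 fold change -0.33, adjusted p = 0.304). Of the cuticle Krtap genes, Krtap17-1 was at 116, 92.4 and 174 CPM in WT and 50.5, 72.3 and 74.9 CPM in KO (log2 fold change -0.95, SE 0.25, adjusted p = 0.0648). Krtap5-3 and Krtap10-4, cysteine-rich proteins of the same layer, had log2 fold changes of -1.06 and -1.05 (adjusted p = 0.0762 and 0.0782). All 3 had their KO values below WT. Krtap10-4 lies within Tspear on the opposite strand. Krt35, Krt39 and Krt40, which are made in more than 1 of these layers, had log2 fold changes of -0.62, -0.46 and -0.40 and adjusted p-values of 0.098, 0.327 and 0.307, and Krt35 alone of them had no overlap between genotypes.

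**Figure D3:**
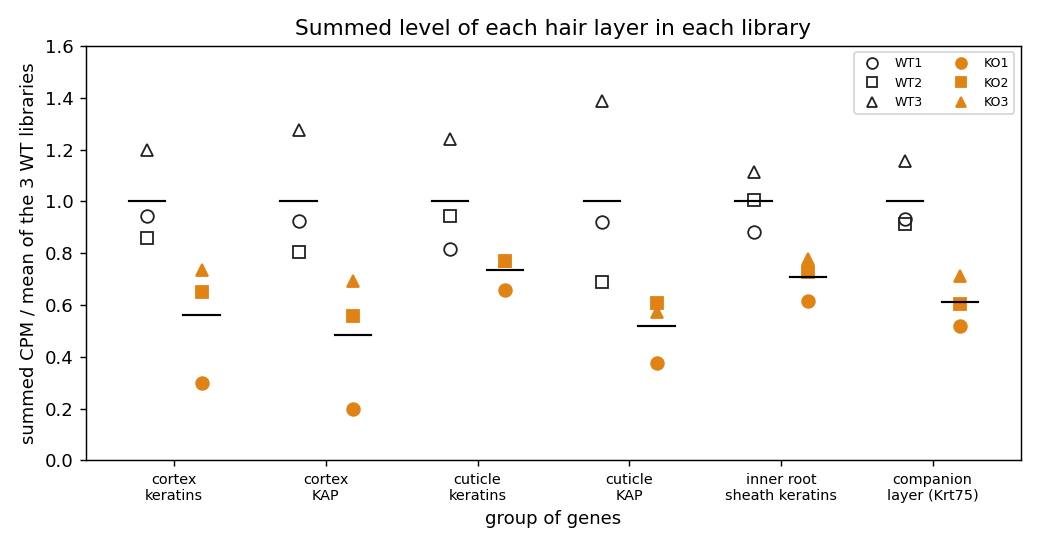
Summed CPM of the genes of a layer in each library, divided by the mean of the 3 WT libraries, for keratins and keratin-associated proteins (KAP), with a line at the mean of each genotype. In KO1 the sums were 0.299 for cortex keratins and 0.198 for cortex KAP but 0.617 for the inner root sheath and 0.520 for Krt75, while KO2 and KO3 lay between 0.559 and 0.778 in all 6 groups.

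The KO libraries differed from each other most in the cortex. Summed over the layer and divided by the WT mean, cortex genes stood at 0.235 in KO1, 0.593 in KO2 and 0.707 in KO3, cuticle genes at 0.430, 0.637 and 0.611, and inner root sheath genes at 0.617, 0.725 and 0.778. The WT libraries ranged from 0.824 to 1.25 in the cortex, from 0.738 to 1.36 in the cuticle and from 0.882 to 1.11 in the inner root sheath. No KO sum reached the range of WT in any of the 3 layers. KO1 was the lowest of all 6 libraries in 69 of 77 members. Within a library, the ratio of cortex to inner root sheath sums was 1.78, 1.38 and 1.89 in WT and 0.644, 1.38 and 1.53 in KO. This balance was thus shifted in KO1, while KO2 and KO3 lay near or within the WT range. The ratio of cuticle to inner root sheath sums overlapped as well, from 0.106 to 0.177 in WT and from 0.101 to 0.128 in KO.

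Keratin-associated proteins had a median log2 fold change of -1.05 over 54 genes, with 2 called lower. Keratins had -0.54 over 23 genes, with 3 called lower. Of all genes tested, 2.09% were called lower. The Krtap median was the lower of the 2 in all 17 alternative fits, which share libraries and are not independent checks. Within the cortex, where both are made together, the ratio of summed Krtap to summed keratin CPM was 1.68, 1.61 and 1.82 in WT and 1.14, 1.47 and 1.62 in KO, so KO3 lay within the WT range. By protein class, medians were -1.13 for 16 glycine- and tyrosine-rich genes, -0.94 for 12 high sulfur genes, -1.05 for 20 ultra-high sulfur genes and -1.24 for 6 genes without a class. Both Krtap genes called lower were of the glycine- and tyrosine-rich class, but 2 calls are too few to compare the classes. In this class 14 of 16 genes had all KO values below WT, against 18.1% of all genes. The counts were 10 of 12 for high sulfur genes, 13 of 20 for ultra-high sulfur genes and 6 of 6 for genes without a class.

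The glycine- and tyrosine-rich Krtap8-1 and Krtap7-1 had the highest levels per length of the Krtap members, at 1544 and 1089 CPM per kb in WT. Krtap8-1 had 803, 734 and 1122 CPM in WT and 248, 429 and 516 CPM in KO (log2 fold change -1.16, SE 0.29, adjusted p = 0.054). Krtap7-1 had 641, 562 and 826 CPM in WT and 163, 359 and 438 CPM in KO (log2 fold change -1.08, SE 0.34, adjusted p = 0.0888). Neither gene overlapped between genotypes, and the KO means were 0.449 and 0.473 of WT. Krtap19-4, Krtap6-1 and Krtap6-5 of the same class had log2 fold changes of -1.37, -1.29 and -1.36 with adjusted p-values of 0.0544, 0.056 and 0.0588. Krtap16-3, Krtap16-1 and Krtap14, to which no layer was assigned, had -1.19, -0.97 and -1.29 with adjusted p-values of 0.0648, 0.0666 and 0.0687, and Krtap14 overlaps 4930553J12Rik and Krtap15 on the opposite strand.

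Among the sulfur-rich genes, Krtap3-1, Krtap1-5 and Krtap11-1 had the highest CPM. Krtap3-1 had 503, 419 and 691 CPM in WT and 80.8, 320 and 391 CPM in KO (log2 fold change -1.03, SE 0.49, adjusted p = 0.204). Krtap1-5 had a log2 fold change of -0.78 (adjusted p = 0.219) and Krtap11-1 of -0.86 (adjusted p = 0.0806). KO1 was at 0.150 of the WT mean in Krtap3-1 and at 0.231 in Krtap1-5, with KO2 and KO3 between 0.596 and 0.791. The lowest log2 fold change of all members belonged to Krtap9-5, with 13.3, 9.44 and 15.6 CPM in WT and 0.716, 4.80 and 6.13 CPM in KO (log2 fold change -1.70, SE 0.58, adjusted p = 0.103).

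**Figure D4:**
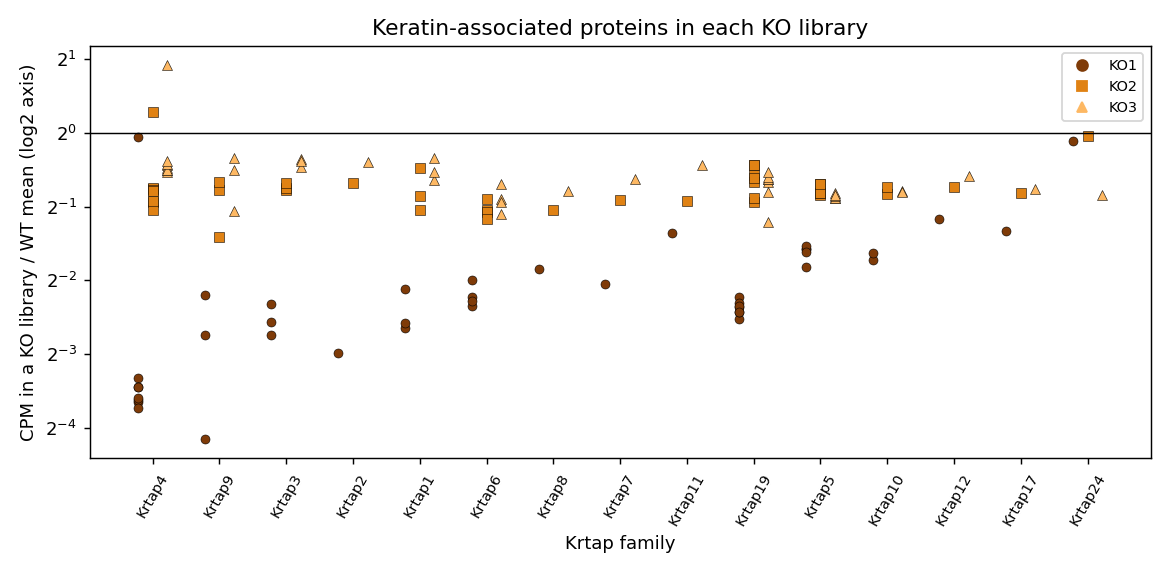
CPM in each KO library divided by the WT mean, on a log2 axis, for each gene of 15 Krtap families, with cortex families on the left, Krtap19 without a layer, and cuticle families on the right. KO1 lies furthest below 1 in Krtap4 and Krtap9, and the 3 Krtap4 points close to or above 1 are those of Krtap4-13.

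The Krtap4 family, ultra-high sulfur proteins of the cortex, had the widest spread between KO libraries of the 25 Krtap families, by the ratio of its highest to its lowest summed level. Without Krtap4-13, its summed level was 1293, 943 and 1738 CPM in WT and 117, 750 and 958 CPM in KO. KO1 was at 0.089 of the WT mean, KO2 at 0.566 and KO3 at 0.723, and single genes stood between 0.0752 and 0.0997 in KO1. Krtap4-16, chosen here after its values were seen, had 153, 106 and 194 CPM in WT and 11.4, 87.3 and 116 CPM in KO (log2 fold change -1.08, SE 0.66, adjusted p = 0.305). KO3 lay above WT2 in this gene, and KO1 was far below every other library. In the cuticle family Krtap5, whose summed level was 0.330 of the WT mean in KO1, 0.592 in KO2 and 0.554 in KO3, the KO libraries were closer together.

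Krtap4-13 had the highest log2 fold change of the Krtap genes, with 20.2, 15.0 and 34.9 CPM in WT and 22.5, 28.3 and 44.4 CPM in KO (log2 fold change 0.44, SE 0.35, adjusted p = 0.414). The genotypes overlapped, and KO1 was at 0.962 of the WT mean. In this gene 62.8% of 100-base windows of the exon also occur in the copies Gm11554 or Gm11569. Only uniquely assigned reads were counted, so reads from these windows could be missing from its count. Gm11554 had 10.5, 5.48 and 14.9 CPM in WT and 3.53, 6.58 and 10.01 CPM in KO, and Gm11569 9.25, 5.70 and 13.9 CPM in WT and 1.54, 3.65 and 6.36 CPM in KO. Neither copy was higher in KO on average. Shared windows were rare in most other members: 43 of 77 shared none with any other gene. These 43 had a median log2 fold change of -0.99 with 4 called lower (2.09% of all genes).

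Regulators of hair formation were examined from a list of 24 genes, of which 5 were called lower and 0 higher (2.09% and 4.38% of all genes), with a median log2 fold change of -0.41. At an unadjusted p under 0.05, 12 were lower and 1 was higher, against 16% and 13.5% of all genes. The list was drawn up with earlier results of these data known. Hoxc13, the homeobox factor that switches on hair keratin genes in the matrix and cortex, had 75.3, 61.6 and 81.9 CPM in WT and 31.0, 40.01 and 46.0 CPM in KO (log2 fold change -0.90, SE 0.18, adjusted p = 0.0292). Lef1, the DNA-binding partner of beta-catenin in the hair matrix, had 26.5, 23.0 and 31.3 CPM in WT and 10.1, 13.8 and 16.9 CPM in KO (log2 fold change -0.98, SE 0.22, adjusted p = 0.0387). Both factors had no overlap between genotypes, with KO1 the lowest library as in most members. Foxq1, a forkhead factor of the hair medulla, and Bmp4 and Shh, signals made in the growing follicle, fell as well, by 1.19, 0.97 and 1.25 on the log2 scale (adjusted p = 0.0122, 0.0474 and 0.0147).

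Foxn1, the forkhead factor mutated in nude mice, and Gata3, which acts in the inner root sheath, did not pass. Foxn1 had 65.8, 50.6 and 72.9 CPM in WT and 34.7, 49.5 and 49.8 CPM in KO (log2 fold change -0.50, SE 0.20, adjusted p = 0.141). Gata3 had 121, 98.7 and 124 CPM in WT and 68.6, 92.9 and 112 CPM in KO (log2 fold change -0.33, SE 0.19, adjusted p = 0.285), with KO3 above WT2. Each of the 5 calls was lost when 1 library was left out. Without KO1, KO2, WT1 or WT3, 0 of the 24 were called. Over all genes, 0.19% were called lower without KO1 and 0.122% without KO2. With a library left out, the log2 fold changes of the 5 genes stayed negative, between -1.27 (Shh) and -0.70 (Hoxc13).

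Of 15 other genes of hair shaft and sheath, 3 were called lower and 0 higher (2.09% and 4.38% of all genes). Their median log2 fold change was -0.38. At an unadjusted p under 0.05, 7 were lower and 0 were higher, against 16% and 13.5% of all genes. Padi3, which converts arginine to citrulline in proteins such as trichohyalin, had 180, 152 and 201 CPM in WT and 90.8, 101 and 115 CPM in KO (log2 fold change -0.80, SE 0.16, adjusted p = 0.0246). Ly6g6d fell by 0.87 (adjusted p = 0.0499) and Tspear by 1.53 (adjusted p = 0.0139) on the log2 scale, and Tspear overlaps Krtap10 and Krtap12 genes. Tchh, trichohyalin, the matrix protein of the inner root sheath and medulla, had 2714, 2816 and 3573 CPM in WT and 1957, 2757 and 2256 CPM in KO (log2 fold change -0.38, SE 0.21, adjusted p = 0.261). KO2 lay between WT1 and WT2 in Tchh, so the genotypes overlapped.

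**Figure D5:**
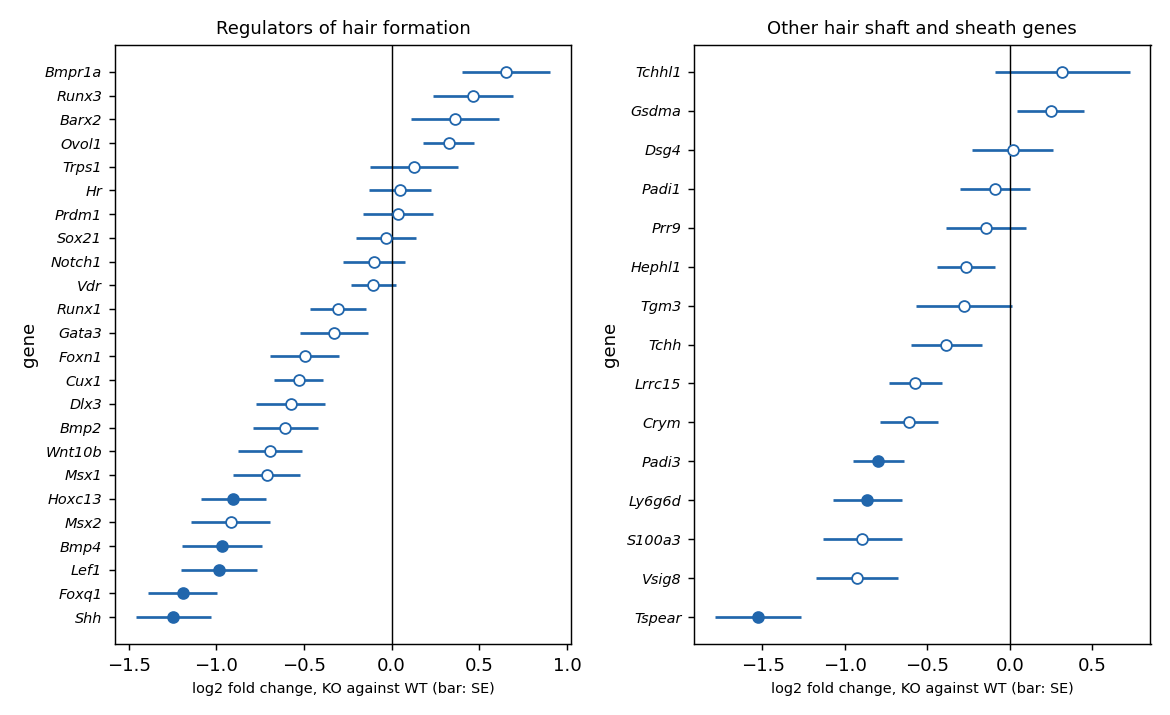
Log2 fold change, KO against WT, with its standard error, of 24 regulators of hair formation (left) and 15 other hair shaft and sheath genes (right). Filled points passed an adjusted p of 0.05, which were Hoxc13, Bmp4, Lef1, Foxq1 and Shh on the left and Padi3, Ly6g6d and Tspear on the right, all left of 0.

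Markers of other cells of the lip moved with genotype too, and their part in the results above was not tested. Skeletal muscle markers summed to 0.430, 0.409 and 0.638 of the WT mean in the KO libraries. Of these 6 markers 1 was called lower, Tnnt3 (2.09% of all genes), and all 6 had KO values below WT (18.1% of all genes). Suprabasal keratinocyte markers summed to 2.11, 1.80 and 1.39 of the WT mean, although 0 of 4 were called by the quasi-likelihood test. Krt1 and Krt10 made up most of this sum, at WT means of 8019 and 8715 CPM against 2257 in Lor and 1280 in Flg. Lor was lower in KO on average (log2 fold change -0.32), with overlapping genotypes. Of the 4, 3 were higher at an unadjusted p under 0.05 (13.5% of all genes). The exact test and DESeq2 each called 3 higher (7.76% and 9.5% of all genes). Outer root sheath markers, from the part of the follicle that persists through the resting stage, had 0 of 9 called by the quasi-likelihood test. Of the 9, 6 were lower at an unadjusted p under 0.05 (16% of all genes). The exact test and DESeq2 each called 3 lower (7.15% and 7.61% of all genes). These markers had a median log2 fold change of -0.49. Krt17 alone made up 45.7% to 64.1% of their sum, and it decided how the sum compared. With Krt17 the sums overlapped (0.912 to 1.08 of the WT mean in WT and 0.924 to 0.987 in KO), and without it they were 1.03, 0.997 and 0.976 in WT and 0.667, 0.784 and 0.829 in KO, with no overlap. The sums of basal keratinocyte markers overlapped between genotypes (0 of 4 called, median 0.06), although in 1 of them, Itga6, the KO values were all above WT. Melanocyte sums overlapped as well (0 of 4 tested called, median -0.32, at or below 12.03 CPM each), as did those of dermal papilla (0 of 6 called, 0.535 to 0.914 of the WT mean in KO), adipocyte (0 of 4, 0.497 to 0.732) and immune markers (0 of 4, 0.718 to 1.38). Within these lists, the KO values were all below WT in Alpl, Cidec and Lyz2 and all above WT in Ptprc. Of 5 sebaceous gland markers, Awat1 was called lower and Scd3 higher (2.09% and 4.38% of all genes), with overlapping sums. Scd1 made up most of that sum, at a WT mean of 3701 CPM against 540 in Elovl3, the next highest. Scd1, Elovl3 and Awat2 had log2 fold changes of -0.41, -0.61 and -0.61 and were not called. Elovl3 and Awat1 had all KO values below WT.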

How the data were processed

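Top lip RNA from 6 mice gave 1 paired-end mRNA library each. The authors mapped reads with TopHat2 2.0.8 and Bowtie2 2.1.0 to GRCm38 (submitters' processing notes) and deposited, for each gene symbol, the count of uniquely assigned reads from HTSeq, without normalization. The strand setting is not given in the sources used here. After a filter of 1 CPM in 3 or more libraries, genes were tested with TMM scaling and the quasi-likelihood F test (glmQLFit with legacy=FALSE) of edgeR 4.0.16 in R 4.3.3, with Benjamini-Hochberg adjustment over 15009 genes and a threshold of 0.05. CPM are TMM-scaled, and errors are SD over 3 mice per genotype. The procedure was tested on simulated data.

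Layers and protein classes of keratin-associated proteins follow textbook knowledge of the families, which for layers comes mostly from human hair, and mouse genes may be made in other layers. A composition computed from reference proteins had been planned for the classes, and the family numbers were used in its place because no protein sequences were used here. Members and lists were chosen with earlier results of these data known. Genes named singly are all keratins, the Krtap genes with the 12 lowest p, the highest and lowest fold change and the 5 highest CPM, those at the filter, and, of the other lists, genes past the threshold with Hoxc13, Foxn1, Lef1, Gata3 and Tchh. Some markers of other cells are also named, for their share of a sum or for their direction within a list. Shared windows are stretches of 100 bases, the read length, found in exons of another gene of GENCODE M21. Tables were made with Python 3.11.15.

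Alternatives were the exact test, DESeq2 1.42.0, limma 3.58.1 with voom, the older quasi-likelihood fit, robust estimation, 3 other scalings, no filter, at least 10 counts in every library, replicate number as a block, a threshold of 0.1 on adjusted p, Krt35 counted as cortex, and each library left out. The cortex without Krt36 and the Krtap4 family was added after seeing the data. Replicates of a genotype differed by more than sampling noise (chi-square per degree of freedom 59.5 to 198). Counting intervals were not needed, since no value of a tested gene named here rests on a count of 0. Krtap13, with 0 reads in KO1, was below the filter and was not tested.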

Additional observations from a re-analysis of the deposited data

How the results depend on the processing

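The count of members called lower was 42 with edgeR's exact test, 36 with DESeq2, 8 with upper-quartile scaling (2.69% of all genes), 16 with the replicate block (1.45%), 31 at an adjusted p under 0.1 (8.53%), and 0 to 49 when a library was left out. For cortex genes it was 16 with the exact test, 11 with DESeq2, 4 with upper-quartile scaling, 7 with the replicate block and 0 to 22 with a library left out. For cuticle genes these were 9 with either test and 0 to 9 with a library left out, and for inner root sheath genes 2 with DESeq2 and 0 to 2. Regulators called lower numbered 8 with the exact test, 10 with DESeq2 and 0 to 11 with a library left out, and 0 to 1 were called higher. Other hair genes called lower numbered 6 with the exact test, 7 with DESeq2 and 0 to 7 with a library left out, and 0 to 1 were called higher. With a library left out, medians lay between -1.14 and -0.57 for all members and between -0.54 and -0.24 for regulators. No median of these groups changed sign. Cortex medians with Krt35 added, or without Krt36 and the Krtap4 family, moved by less than the spread between libraries. Single genes that changed sign were Krt26 (-0.17 without WT1, -0.06 without KO2, within a range of -0.17 to 0.36 over left-out libraries) and Krt74 (0.29 without WT2, 0.12 without KO3, within -0.40 to 0.29). No other scaling moved the median of all genes by more than 0.06.

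Whether replicate numbers mark pairs of mice is not given in the sources used here. Deviations of same-numbered libraries from their genotype means correlated at -0.19, 0.31 and 0.33. Differently numbered libraries ranged from -0.52 to 0.42, so these correlations cannot decide it. The replicate block rests on a shared number only, and not every library correlated best with its own number. The sum of outer root sheath markers without Krt17 was added after seeing the data.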

Other observations

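The order of the KO libraries differed between members, which was noticed after the values were seen. In 5 members KO3 was the lowest KO library, namely Krt36, Krt26, Krt74, Krtap24-1 and Krtap27-1, whereas KO1 was the lowest in 71. Krtap24-1, a high sulfur protein placed in the cuticle, had 26.9, 36.6 and 38.0 CPM in WT and 31.5, 33.0 and 18.8 CPM in KO (log2 fold change -0.28, adjusted p = 0.445), and it overlaps Gm49688 on the opposite strand. Krtap27-1 had 6.06, 9.82 and 7.83 CPM in WT and 7.11, 7.63 and 3.70 CPM in KO (log2 fold change -0.36, adjusted p = 0.45). In both genes KO1 and KO2 lay within the range of WT. The other hair genes Tchhl1 and Prr9, also picked after their values were seen, had 33.1 and 251 CPM in KO3 against 115 and 427 CPM in KO1.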
